A study of Mus musculus with 8 samples.

Results

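Macrophages of the fetal mouse lung are described here by 10 marker genes, Spi1, Csf1r, Cd68, Adgre1, Mrc1, Marco, C1qa, C1qb, C1qc and Lyz2. The genes were chosen by symbol, and each symbol matched 1 gene ID, so that they are 10 of the 55385 gene IDs counted. The values come from mRNA-seq of bulk lung tissue of C57BL/6 mouse fetuses collected on day E18.5 of gestation, from 4 control fetuses and 4 fetuses with tracheal occlusion (TO). TO was made at E16.5 by tying off the trachea together with one carotid artery and jugular vein through the uterine wall, so that the fluid secreted by the lung could not leave it, and the dams received progesterone at E17.5. The deposited files carry specimen codes that controls and TO lungs share, 1 code for control 1, control 4, TO 1 and TO 4, 1 for control 2 and TO 2, and 1 for control 3 and TO 3, and what the codes stand for was not given. How the control fetuses were handled was not given in the sources used here for these libraries. Control 1, 2 and 4 and TO 2, 3 and 4 formed the comparison of the study and are the 6 libraries of the first values below, and control 3 and TO 1 were added in a comparison of all 8 libraries. Between 22822261 and 35002061 read pairs were counted on genes in 7 libraries, and 270078 in TO 1, where 1 read pair is 3.44 CPM, the unit of read counts scaled to library size used throughout.

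Most tissue macrophages of the fetus descend from precursors of the yolk sac and fetal liver, which settle in the organs before birth, and they clear dead cells and debris as the tissue is remodeled. In the lung, fetal monocytes turn into alveolar macrophages around birth under the growth factor Csf2, which epithelial cells supply. Survival of most macrophages depends on the receptor Csf1r and its ligands Csf1 and Il34, and their identity on the transcription factor PU.1, the product of Spi1.

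With the 6 libraries, the fitted level of 10 of the 10 macrophage genes was higher in TO lungs than in control lungs, by log2 fold changes of 0.21 to 0.93 with a median of 0.78. The median was 0.59 with all 8 libraries, 0.52 without TO 3, and 0.46 with the specimen code as a block in the fit. Among the 6 libraries TO 3 alone carries its code, so this block also takes TO 3 out of the comparison. With this block on all 8 libraries, where control 3 shares the code of TO 3 and both are kept, the median was 0.41. Over all 21859 genes tested the median was 0.00, and 49.3% of genes had a fold change above 0. In the first fit, of the 6 libraries with no block, the 3 chains of complement C1q, the receptor Adgre1, the scavenger receptor Marco and the lysozyme Lyz2 had the larger fold changes, between 0.73 and 0.93, and Spi1 and the mannose receptor Mrc1 the smaller ones, 0.21 and 0.27. This order depended on the fit. With the code as a block on the 6 libraries Marco was at 0.26 and Lyz2 at 0.45, and Marco was at -0.64 without TO 2. None of the 10 differences of the first fit passed the threshold of the test, an adjusted p under 0.1 over all genes by edgeR. The groups of the 6 libraries overlapped for 7 of the 10 genes and were apart, with TO higher, for 3, against 5.09% of all genes. With all 8 libraries 1 of the 10 was apart, against 0.710%, and these shares are a description. In bulk tissue, more macrophages and more of these RNAs per macrophage cannot be told apart.

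Spi1 encodes PU.1, the transcription factor that sets up the macrophage program, and lies at chr2:91082390-91115756 on the plus strand (GRCm38). Its level was 7.88, 10.4, 6.05 and 6.90 CPM in controls 1 to 4 and 10.3, 8.77, 11.0 and 9.45 CPM in TO 1 to 4. Control 2 was above TO 1, 2 and 4, so the groups overlapped, and control 3 was the lowest library. The mean was 8.38 ± 1.78 CPM (SD, n = 3) in control and 9.75 ± 1.15 CPM (SD, n = 3) in TO lungs of the 6 libraries, and the fitted log2 fold change was 0.21 ± 0.22 (SE), with an adjusted p of 0.939 by edgeR. It was 0.09 without control 4 and 0.40 without control 2.

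Csf1r, on chromosome 18, encodes the receptor for Csf1 and Il34. Its level was 37.6, 34.6, 46.4 and 37.2 CPM in controls 1 to 4 and 48.2, 42.4, 50.3 and 56.1 CPM in TO 1 to 4. All 4 TO libraries lay above controls 1, 2 and 4, whereas control 3 lay above TO 2, so that the groups were apart in the 6 libraries and overlapped in all 8. The means were 36.4 ± 1.65 CPM (SD, n = 3) and 49.6 ± 6.85 CPM (SD, n = 3), a log2 fold change of 0.44 ± 0.14 (SE) with an adjusted p of 0.907 by edgeR. Hmgxb3 overlaps Csf1r on the other strand, and the libraries do not separate strands, so reads of either gene within the overlap could not be assigned. With the counts of the first or of the second strand alone, the log2 fold change of Csf1r was 0.32 and 0.29.

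Of 11 growth factors and receptors that act on macrophages and monocytes, 6 had a fold change above 0 and 5 below, with a median of 0.02 with the 6 and with all 8 libraries. Tgfbr2, a receptor for TGF-beta and the most abundant of them at 66.6% of their summed CPM, differed by 0.02 ± 0.10 on the log2 scale (SE), and Csf2ra, a receptor chain for Csf2, by -0.04 ± 0.21. Csf2rb, the other chain of that receptor, and Csf2rb2 were higher in TO by 0.68 ± 0.20 and 0.79 ± 0.37 (SE). For Csf2rb the groups did not overlap in the 6 or in all 8 libraries, and its adjusted p was 0.907 by edgeR. It was 1 of the 11 genes apart with TO higher, against 5.09% of all genes in the 6 libraries and 0.710% in all 8. Tgfbr2 was at -0.22 with all 8 libraries. Of 12 transcription factors of the lineage, 9 were above 0 and 3 below, with a median of 0.19, which was -0.05 with all 8 libraries and -0.01 with the specimen code as a block. Zeb2, Cebpa and Maf, the 3 most abundant factors on the list, had log2 fold changes of -0.05 ± 0.13, 0.33 ± 0.22 and 0.19 ± 0.17 (SE), and are expressed by other lung cells too. Maf was at -0.05 with all 8 libraries.

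Cd68 encodes a glycoprotein of late endosomes and lysosomes in phagocytes and lies at chr11:69664213-69666153 on the minus strand. Its level was 6.83, 9.35, 9.01 and 6.46 CPM in controls 1 to 4 and 13.8, 8.13, 14.2 and 11.0 CPM in TO 1 to 4. TO 1, 3 and 4 were above every control, and TO 2 lay within the control range. The log2 fold change was 0.55 ± 0.26 (SE), with an adjusted p of 0.907 by edgeR, and 0.35 without TO 3.

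Adgre1 encodes F4/80, the adhesion receptor long used to stain mouse macrophages, and lies at chr17:57358691-57483527 on the plus strand. Its level was 7.40, 6.04, 8.60 and 6.34 CPM in controls 1 to 4 and 13.8, 7.18, 15.7 and 12.1 CPM in TO 1 to 4. The pattern was that of Cd68, with TO 2 among the controls and the other TO libraries above them. The log2 fold change was 0.82 ± 0.29 (SE), from a mean of 6.59 ± 0.715 CPM (SD, n = 3) in control to 11.7 ± 4.29 CPM (SD, n = 3) in TO lungs, with an adjusted p of 0.907 by edgeR.

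Mrc1 encodes the mannose receptor CD206, which takes up glycoproteins with exposed mannose, and lies at chr2:14229392-14332057 on the plus strand. Its level was 40.8, 35.4, 30.4 and 38.1 CPM in controls 1 to 4 and 34.4, 37.3, 47.4 and 53.3 CPM in TO 1 to 4. TO 3 and TO 4 were above every control, and TO 1 and TO 2 were below control 1. The log2 fold change was 0.27 ± 0.16 (SE), with an adjusted p of 0.907 by edgeR. It was 0.16 without TO 4 and 0.41 without TO 2.

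Marco, a scavenger receptor that binds bacteria and particles and is abundant on mature alveolar macrophages, lies at chr1:120474538-120505024 on the minus strand. Its level was 0.832, 1.17, 1.01 and 0.363 CPM in controls 1 to 4 and 0, 3.50, 0.743 and 0.284 CPM in TO 1 to 4. TO 2, with 121 read pairs, was the only TO library above the controls, and TO 4, with 10 read pairs, was below all of them. The count of 0 in TO 1 has a floor of 10.3 CPM, the level of 3 read pairs at its depth, and floors and intervals here cover counting error only. The log2 fold change of 0.93 ± 0.88 (SE) had an adjusted p of 0.931 by edgeR and rested on TO 2, since it was -0.64 ± 0.83 (SE) without that library.

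**Figure D1:**
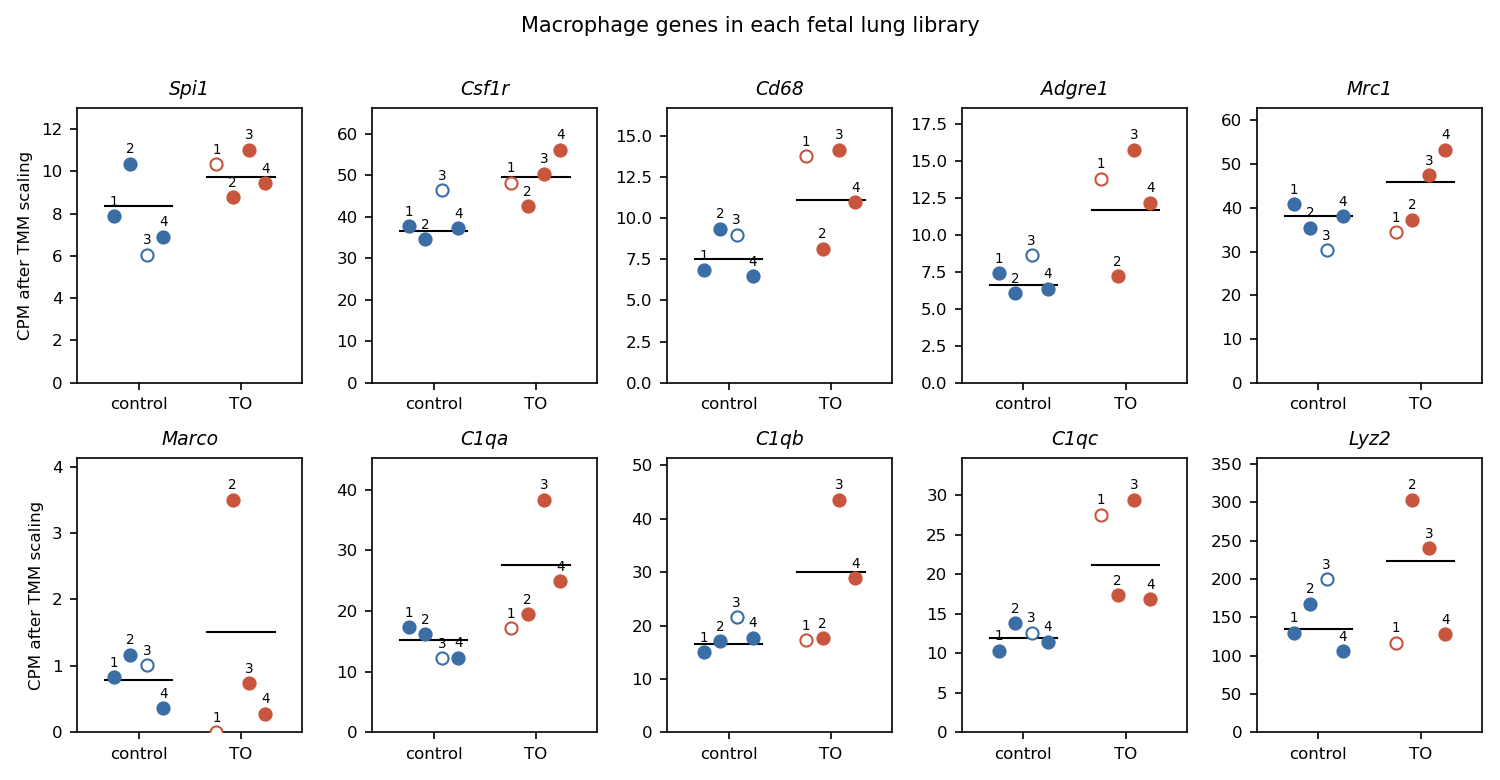
Level of each macrophage gene in each library, as CPM after TMM scaling. Points are libraries numbered by replicate, filled for the 6 libraries of the study comparison and open for control 3 and TO 1, and lines are means of the filled points; C1qa, C1qc and Csf1r have filled TO points that all lie above the filled control points, and TO 2 holds the highest Marco and Lyz2 values.

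C1qa, C1qb and C1qc encode the 3 chains of C1q, the protein that starts the classical complement pathway and marks dying cells for uptake, and macrophages are its main source in most tissues. The genes lie side by side on the minus strand of chromosome 4, C1qb at chr4:136880129-136886187, C1qc at chr4:136889804-136893065 and C1qa at chr4:136895917-136898803. C1qa was at 17.4, 16.2, 12.2 and 12.3 CPM in controls 1 to 4 and at 17.2, 19.5, 38.4 and 25.0 CPM in TO 1 to 4. C1qb was at 15.1, 17.1, 21.6 and 17.8 CPM in controls 1 to 4 and at 17.2, 17.7, 43.6 and 28.9 CPM in TO 1 to 4. C1qc was at 10.3, 13.8, 12.6 and 11.5 CPM in controls 1 to 4 and at 27.5, 17.3, 29.5 and 16.8 CPM in TO 1 to 4. TO 3 was the highest library for each of the 3 chains. C1qa and C1qc did not overlap between the groups of the 6 libraries, C1qb overlapped by a small margin between control 4 and TO 2, and with all 8 libraries only C1qc was still apart.

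The fitted log2 fold changes of the chains were alike, 0.85 ± 0.25 (SE) for C1qa, 0.85 ± 0.28 for C1qb and 0.83 ± 0.24 for C1qc, each with an adjusted p of 0.907 by edgeR. By DESeq2 on the same 6 libraries the adjusted p was 0.195, 0.292 and 0.204, the lowest among the macrophage genes. Without TO 3 the fold changes were 0.55, 0.50 and 0.53. Summed over the chains, C1q was 1.14, 1.36, 1.001 and 1.12 times the Csf1r level in controls 1 to 4 and 1.29, 1.28, 2.21 and 1.26 times in TO 1 to 4, a ratio of CPM chosen after the values were seen. TO 3 was thus the one library in which the C1q chains stood apart from Csf1r, and the other TO libraries lay within the control range.

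Promoter windows of 300 bases, from 250 before to 50 after the RefSeq start, were found in the RefSeq table (GRCm38.p6) for 6 of the 10 genes, Cd68, Mrc1, Marco, C1qb, C1qc and Lyz2. GAGGAAG, a core of the sequence PU.1 binds, was searched on both strands and occurred in the windows of 3 of these 6 genes and in 13.6% of all 32851 windows. The windows of C1qc and C1qb are shown because these neighbors on the chromosome had like fold changes while only C1qc holds the letters, and that of Mrc1 because it holds them more than once. Capitals mark the letters, written as their reverse complement where they lie on the other strand, and each line is read 5′ to 3′ on the strand of the gene. The windows are chr4:136892865-136893164 on the minus strand for C1qc, chr2:14229164-14229463 on the plus strand for Mrc1 and chr4:136886151-136886450 on the minus strand for C1qb.
C1qc: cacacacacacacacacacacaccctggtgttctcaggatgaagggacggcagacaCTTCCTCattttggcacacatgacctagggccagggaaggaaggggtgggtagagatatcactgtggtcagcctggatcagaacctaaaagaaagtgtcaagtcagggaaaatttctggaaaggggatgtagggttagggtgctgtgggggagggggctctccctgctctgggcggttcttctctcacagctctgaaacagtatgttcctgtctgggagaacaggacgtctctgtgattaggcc
Mrc1: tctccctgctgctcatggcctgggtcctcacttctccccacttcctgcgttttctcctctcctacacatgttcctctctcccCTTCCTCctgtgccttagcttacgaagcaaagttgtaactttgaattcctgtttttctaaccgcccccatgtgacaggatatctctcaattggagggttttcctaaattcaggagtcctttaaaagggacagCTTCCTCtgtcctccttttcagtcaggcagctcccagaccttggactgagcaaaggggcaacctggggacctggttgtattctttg
C1qb: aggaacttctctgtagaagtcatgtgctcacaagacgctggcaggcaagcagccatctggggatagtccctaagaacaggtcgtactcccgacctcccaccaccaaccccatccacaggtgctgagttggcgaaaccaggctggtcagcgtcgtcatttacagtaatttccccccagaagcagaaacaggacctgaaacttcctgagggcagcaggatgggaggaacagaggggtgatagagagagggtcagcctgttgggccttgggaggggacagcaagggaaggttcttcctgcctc
The RefSeq start lies 151 bases inside the C1qc gene and 22 bases inside the Mrc1 gene as located above, and is the same as the gene start for Marco. Counted from the gene starts given above, the match begins 43 bases before C1qc, the matches in Mrc1 begin 146 and 14 bases before it, and that in Marco 146 bases before. TGCTGAC, a part of the sequence that Maf proteins bind, and CACGTG, the E-box bound by the lysosomal regulators of the Tfe family, occurred in 0 of the 6 windows and in 4.67% and 7.15% of all windows. A match is a description of these letters and says nothing of binding. C1qc, with the letters, and C1qb, without them, had log2 fold changes of 0.83 and 0.85.

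Of 14 genes that act with C1q, from the proteases it activates to receptors for complement fragments, 11 had a fold change above 0 and 3 below, with a median of 0.50 (0.38 with all 8 libraries). The groups of the 6 libraries did not overlap, with TO higher, for 5 of these 14, against 5.09% of all genes, and with all 8 libraries for 0, against 0.710%. C4b, the complement factor cleaved after C1q binds, had the largest fold change, 2.59 ± 0.87 (SE), with its highest level in TO 3. Calr, the most abundant gene of the list and a chaperone that also serves as a C1q receptor, differed by -0.15 ± 0.20, Cd93 by 0.00 ± 0.12, and Serping1, the inhibitor of the C1 proteases, by 0.30 ± 0.17 on the log2 scale (SE). With all 8 libraries Cd93 was at -0.17 and Serping1 at -0.25.

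Lyz2 encodes the lysozyme of macrophages, an enzyme that cuts bacterial cell walls, and lies at chr10:117277331-117282321 on the minus strand. Alveolar type 2 (AT2) cells of the mouse express it as well. Its level was 130.1, 168, 199.9 and 106 CPM in controls 1 to 4 and 117, 303, 240.2 and 128 CPM in TO 1 to 4. TO 2 and TO 3 were above every control, and TO 1 and TO 4 lay within the control range. The log2 fold change was 0.73 ± 0.28 (SE) with an adjusted p of 0.907 by edgeR, and without TO 4 it was 1.02 ± 0.19 with an adjusted p of 0.0917, under the threshold. Without TO 2 it was 0.45. With a replicate block on the 6 libraries, where control 1 and TO 3 drop out, it was 0.57 (adjusted p of 0.0709 by edgeR).

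Lyz1, the neighboring lysozyme gene, is close in sequence to Lyz2, and the counts of both are uncertain to the extent that reads fit either. Lyz1 was at 63.2, 68.0, 40.7 and 57.3 CPM in controls 1 to 4 and at 62.0, 200.9, 131 and 41.6 CPM in TO 1 to 4. It was highest in TO 2 and TO 3, as Lyz2 was. The 8 AT2 genes, led by the surfactant gene Sftpc with 64.2% of the sum, added up to 11095, 15871, 12322 and 9596 CPM in controls 1 to 4 and to 6586, 20225, 16101 and 8766 CPM in TO 1 to 4. This sum, too, was highest in TO 2 and TO 3 and low in TO 4, and all 8 AT2 genes had a fold change above 0 (median 0.45, and 0.23 with all 8 libraries) with groups that overlapped. The part of AT2 cells in the Lyz2 values was not tested. Of 13 genes for lysozyme and lysosomal proteins 12 were above 0, with a median of 0.16, and Lyz1 had the largest value, 0.98 ± 0.43 (SE). With all 8 libraries this median was -0.08, and control 3 had the highest sum of these genes, 3617 CPM.

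Levels of different genes can be compared only per length, as CPM per kilobase of exon. On that scale, as means over the 7 libraries other than TO 1, Lyz2 was at 138, C1qb at 21.2, C1qa at 19.4, C1qc at 8.28, Csf1r at 7.54, Cd68 at 7.38, Mrc1 at 6.34, Spi1 at 3.20, Adgre1 at 2.80 and Marco at 0.586. Lyz2 (80.6 to 230.5 per kilobase) lay above C1qb (13.8 to 40.1) in every library, and Marco (0.147 to 1.82) below Adgre1 (1.87 to 4.86). The ranges of C1qb, C1qa, C1qc, Csf1r, Cd68 and Mrc1 each overlapped that of the next in order, and Spi1 (2.25 to 4.09) lay below Mrc1 (4.76 to 8.36), while the range of Adgre1 overlapped both.

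The libraries differed in which macrophage genes were high. TO 3 was the highest of the 8 libraries for 6 genes (Spi1, Cd68, Adgre1, C1qa, C1qb and C1qc), TO 2 for Marco and Lyz2, and TO 4 for Csf1r and Mrc1. TO 3 exceeded all 4 controls for 9 of the 10 genes, TO 4 for 7 and TO 2 for 4. No control was the highest library for any of the 10 genes, and control 3 was the highest control for Csf1r, Adgre1, C1qb and Lyz2 but the lowest for Spi1, Mrc1 and C1qa. TO 1 holds between 0 and 34 read pairs per gene, and its values carry wide counting intervals, for C1qc 11.9 to 54.3 CPM (95%, exact Poisson).

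**Figure D2:**
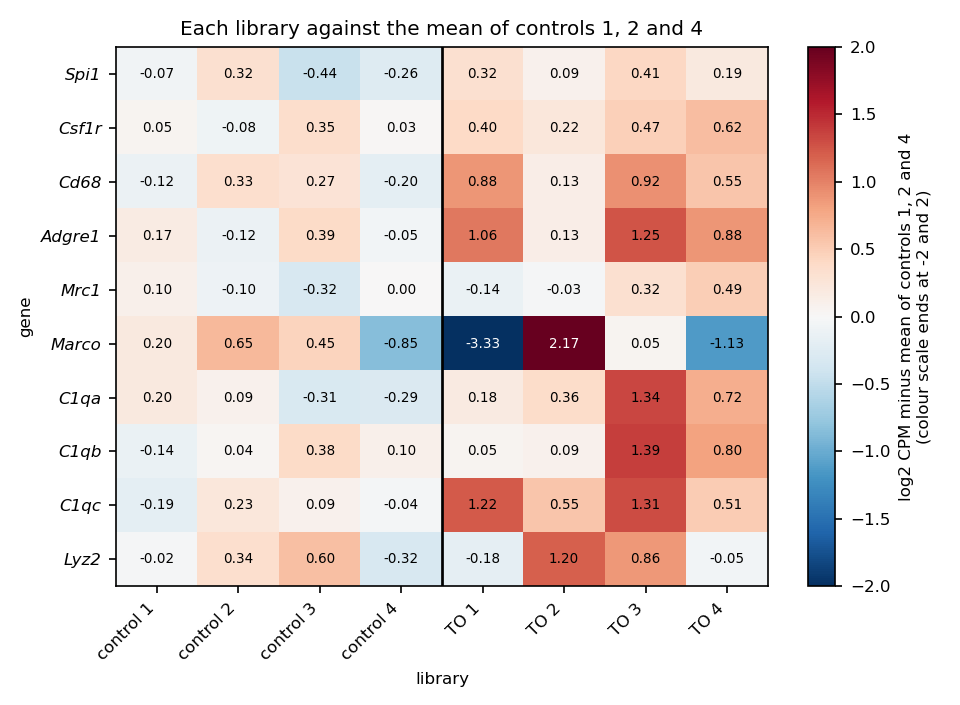
Difference of each library from the mean of controls 1, 2 and 4 in log2 CPM (prior count of 2), by gene and library, with the values written in the cells. TO 3 holds the high values for Adgre1, C1qa, C1qb and C1qc (1.25 to 1.39), TO 2 those for Marco (2.17) and Lyz2 (1.20), and the Marco value of TO 1 stands for a count of 0 and depends on the prior count.

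edgeR called 0 of the 21859 genes at an adjusted p under 0.1 with the 6 libraries (0%), and so 0 of the 10 macrophage genes, although 1123 genes (5.14%), 6 of the 10 among them, had a p under 0.05 before adjustment. The adjusted p of the macrophage genes lay between 0.907 and 0.939, and the lowest of any gene was 0.372. DESeq2 called 44 of the 18421 genes it gave an adjusted p (0.239%) and 0 of the 10 macrophage genes, whose adjusted p lay between 0.195 and 0.965. Before adjustment DESeq2 had 1336 genes with a p under 0.05 (6.11%), 6 of the 10 among them, all higher in TO as in 3.89% of all genes. The third tool, limma-voom, called 0 genes and had 1361 with a p under 0.05 before adjustment. In edgeR the 6 genes with such a p were Csf1r, Adgre1, C1qa, C1qb, C1qc and Lyz2, each higher in TO, against 3.07% of all genes. The groups of the 6 libraries did not overlap, with TO higher, for 3 of the 10 genes against 5.09% of all genes. The 10 genes share a cell type and are not independent of each other, so these shares are a description.

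With all 8 libraries the log2 fold changes were 0.30 to 0.86 with a median of 0.59, beside a median of -0.02 over 22545 genes. Of the 10 genes, 10 had a fold change above 0, against 46.8% of all genes, 5 had a p under 0.05 before adjustment with TO higher, against 1.43%, and C1qc alone did not overlap, against 0.710%. edgeR again called 0 genes (0%), and 530 genes (2.35%), 5 of the 10 among them, had a p under 0.05 before adjustment. DESeq2 on all 8 libraries, a fit added after seeing the data, called 7 genes, none of them a macrophage gene. Lyz2, with the low value of TO 1 and the high value of control 3, went from 0.73 to 0.43 ± 0.29 (SE) and C1qb from 0.85 to 0.68 ± 0.27, while C1qa and C1qc were both at 0.86.

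**Figure D3:**
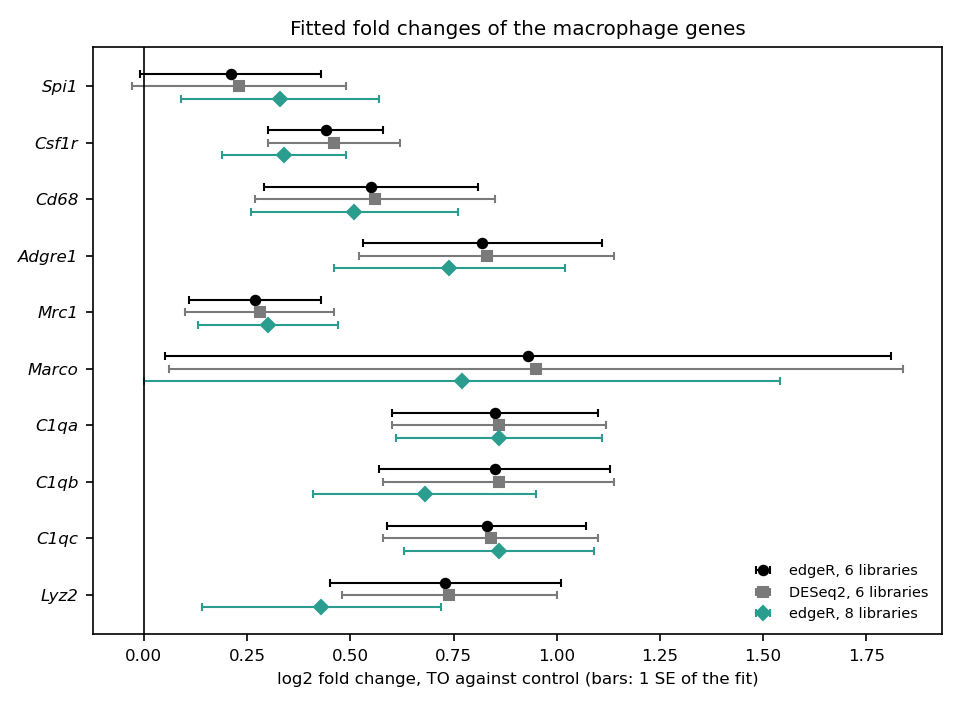
Fitted log2 fold change of TO against control for each macrophage gene, with bars of 1 SE of the fit, by edgeR on 6 libraries, DESeq2 on 6 libraries and edgeR on 8 libraries. All values lie above 0, C1qa, C1qb, C1qc and Adgre1 lie between 0.68 and 0.86, and Marco has the widest error, 0.88 with edgeR on 6 libraries.

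The genes most like the macrophage genes were taken by the correlation of their log2 CPM with the mean of the 10 genes over the 7 libraries other than TO 1, among 14250 genes with a mean of at least 2 CPM. First came Msr1, a macrophage scavenger receptor (Pearson r of 0.969, Spearman rho of 0.964), Pf4, a chemokine of platelets and fetal macrophages (0.969 and 1), and Lcn2, an iron-sequestering protein of neutrophils and inflamed epithelium (0.955 and 0.893). These values describe 7 libraries that share the group difference, and the top genes were picked out of many. Msr1 was at 4.47, 5.33, 7.06 and 2.99 CPM in controls 1 to 4 and at 10.3, 8.02, 15.4 and 7.41 CPM in TO 1 to 4. Pf4 was at 5.08, 7.44, 5.65 and 4.88 CPM in controls 1 to 4 and at 3.44, 10.1, 14.7 and 9.28 CPM in TO 1 to 4. Both were highest in TO 3, as the C1q chains were, and in the 7 libraries each TO value exceeded each control value. The other 7 were Kcnrg, Eif2ak4, Steap4, Atp5l, Zfp85, the MHC class I gene H2-K1 and 2900089D17Rik, with r between 0.925 and 0.947.

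Lcn2 was at 8.72, 8.09, 11.0 and 6.78 CPM in controls 1 to 4 and at 10.3, 23.0, 39.6 and 21.9 CPM in TO 1 to 4. TO 2, 3 and 4 lay above all controls, and TO 1 within them. Its log2 fold change of 1.83 ± 0.25 (SE) had an adjusted p of 0.372 by edgeR and 4.58e-08 by DESeq2, so that the tools differ on its call.

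Of 17 genes shared by phagocytes, 17 had a fold change above 0 (median 0.61, and 0.39 with all 8 libraries), with groups of the 6 libraries that did not overlap for 8, against 5.09% of all genes. With all 8 libraries 2 did not overlap, against 0.710%. Itgam, an integrin chain of myeloid cells, had the largest, 1.35 ± 0.49 (SE). Their summed level was 448, 462, 589 and 416 CPM in controls 1 to 4 and 530.2, 512, 590.2 and 527 CPM in TO 1 to 4, with Grn, a lysosomal protein of many cell types, as the most abundant at 33.6%. Control 3 was as high as TO 3 on this list. Mpeg1, which encodes a pore-forming protein of macrophages, differed by 0.75 ± 0.22, but Lgmn and Grn by 0.11 ± 0.10 and 0.04 ± 0.10 (SE). With all 8 libraries Mpeg1 was at 0.28 and Grn at -0.06.

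Of 14 genes of resident fetal macrophages 13 were tested, and 11 of these were above 0 (median 0.63). Siglec1, a sialic acid receptor of macrophages that interferon induces, had the largest fold change, 1.62 ± 0.56 (SE), and was at 4.60, 2.76, 12.97 and 4.20 CPM in controls 1 to 4 and at 6.89, 3.99, 23.3 and 8.49 CPM in TO 1 to 4. TO 3 and control 3 were its highest libraries, and TO 2 lay among the controls. Apoe, a lipid carrier and the most abundant gene of this list at 46.9%, differed by 0.97 ± 0.31 (SE) and was highest in the same 2 libraries. With all 8 libraries the median of this list was 0.24, Siglec1 was at 0.90 and Apoe at 0.26.

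Of 10 monocyte genes 9 were above 0 (median 0.82, and 0.56 with all 8 libraries). Their sum was 40.6, 38.2, 44.8 and 22.9 CPM in controls 1 to 4 and 114, 48.3, 81.7 and 56.0 CPM in TO 1 to 4, with the chemokine receptor Ccr2 as the most abundant gene, at 0.40 ± 0.27 (SE) on the log2 scale. Plac8, a protein of monocytes and granulocytes, had a fold change of 1.89 ± 0.53 (SE) and was called by DESeq2 (adjusted p of 0.0454) and not by edgeR (0.907). Of 12 alveolar macrophage genes 10 were tested and 7 of these were above 0 (median 0.50, and 0.07 with all 8 libraries). Fabp4, which capillary endothelium also expresses, made up 48.8% of the sum of that list, and Siglecf, Itgax, Fabp1, Ear1 and Krt79 had a count of 0 in at least 1 of the 7 deeper libraries. Fabp1 was at 15.1 CPM in TO 4 and at 0.219 CPM or less in the other libraries.

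**Figure D4:**
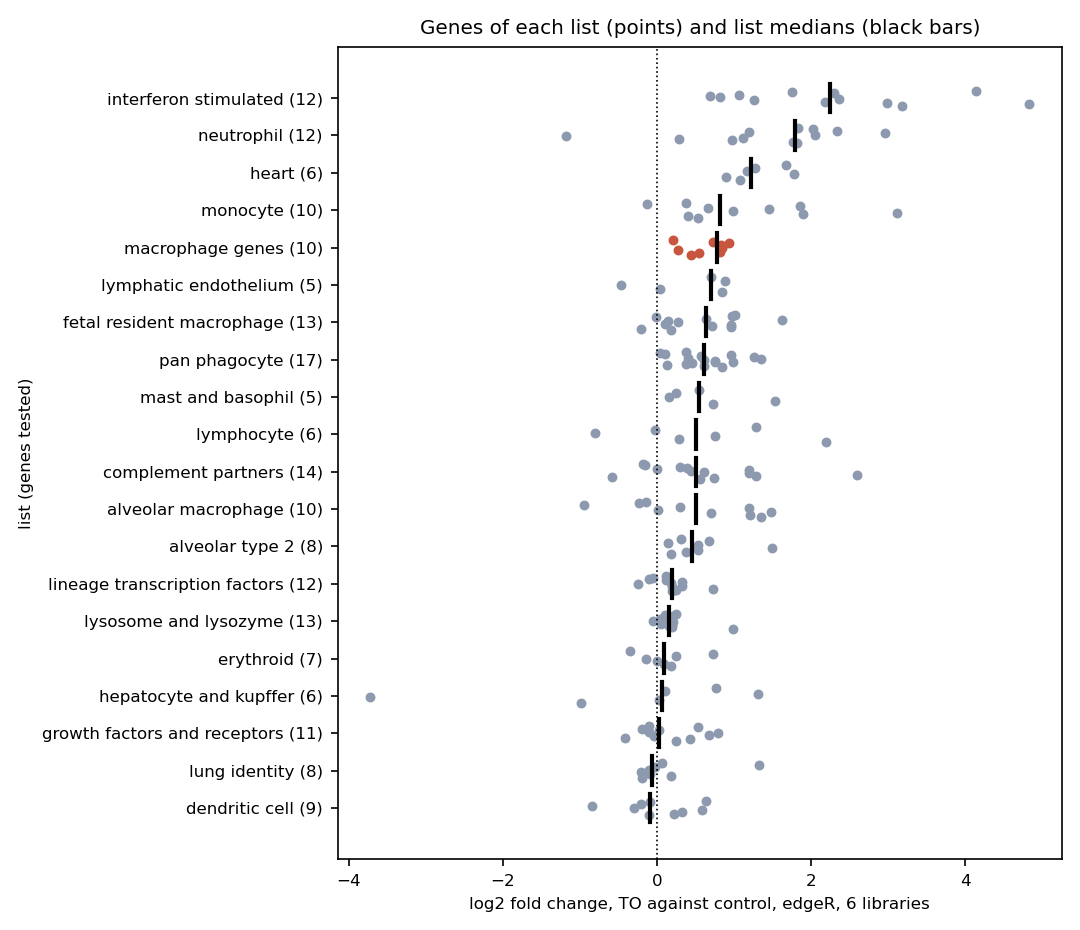
Fitted log2 fold changes of the tested genes of each list (points) and the median of each list (black bars), by edgeR on the 6 libraries, with the number of genes tested in parentheses. The macrophage genes (red) lie between 0.21 and 0.93 around a median of 0.78, and the interferon-stimulated and neutrophil lists have the highest medians on these 6 libraries, 2.24 and 1.79, while with all 8 the lymphocyte (2.50) and neutrophil (1.59) lists do.

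Markers of other cells also differed between the groups or stood out in single libraries, and their part in the values of the macrophage genes was not tested. Of 15 neutrophil genes 12 were tested, 11 were above 0 (median 1.79, and 1.59 with all 8 libraries). DESeq2 called 6 (S100a8, Retnlg, Csf3r, Mmp8, Mmp9 and Lcn2), against 0.239% of all genes, where edgeR called 0, with 9 higher in TO at a p under 0.05 before adjustment, against 3.07%. The groups of the 6 libraries did not overlap, with TO higher, for 7 of the 12, against 5.09% of all genes. With all 8 libraries this held for 3, against 0.710%. Prtn3, a protease of immature neutrophils, was lower in TO with a log2 fold change of -1.18 ± 0.64 (SE), and its groups did not overlap in the 6 libraries but did in all 8. The list sum was 71.6, 53.1, 52.6 and 36.0 CPM in controls 1 to 4 and 131, 98.1, 174 and 215 CPM in TO 1 to 4, so that the groups did not overlap. S100a9 was the most abundant gene at 23.1%, Ly6g had a count of 0 in every library, and Mpo, Elane and Prtn3 had a count of 0 in at least 1 of the 7 deeper libraries. Csf3r, the receptor for the neutrophil growth factor Csf3, had a log2 fold change of 1.19 ± 0.24 (SE). Mmp9, a secreted protease of neutrophils, was at 2.50, 2.40, 4.07 and 2.14 CPM in controls 1 to 4 and at 44.8, 11.2, 6.69 and 10.6 CPM in TO 1 to 4, again with no overlap. Among the macrophage genes, C1qc was alone in being apart in all 8 libraries as Mmp9 was.

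Interferon-stimulated genes differed widely between libraries of the same group. All 12 had a fold change above 0 with a median of 2.24, which was 0.84 with all 8 libraries and 0.77 without TO 3. It was 0.75 with the specimen code as a block on the 6 libraries, which also takes TO 3 out of the comparison. With that block on all 8 libraries it was 0.86. Their sum was 93.9, 122, 321 and 119.5 CPM in controls 1 to 4 and 145, 91.7, 599 and 185 CPM in TO 1 to 4, with Stat2 as the most abundant gene at 27.1%. TO 3, the highest library for 6 of the macrophage genes, was the highest here, control 3, which shares its specimen code, came next, and TO 2 was the lowest library. Ifit3, an antiviral protein induced by interferon, was at 0.482, 0.845, 14.3 and 0.242 CPM in controls 1 to 4 and at 3.44, 2.20, 39.2 and 4.83 CPM in TO 1 to 4, and was called by DESeq2 (adjusted p of 0.0454) and not by edgeR (0.907). Its log2 fold change was 4.83 ± 1.08 (SE) with the 6 libraries and 1.82 with all 8.

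TO 1 differed from the other libraries in markers of other immune cells. The 11 lymphocyte genes summed to 275 CPM in TO 1 against 2.95 to 16.8 CPM elsewhere, and Rag1, a recombinase of developing lymphocytes, was the most abundant of them. The 8 mast cell and basophil genes summed to 217 CPM in TO 1 against 33.5 to 64.4 CPM, with Hdc as the most abundant gene over the other 7 libraries and Cpa3 in TO 1. The 11 dendritic cell genes summed to 227 CPM against 71.1 to 79.0 CPM, with Zbtb46 as the most abundant over the other 7 libraries and Cd74 in TO 1, where Zbtb46 was at its lowest. In the 6 libraries, 4 of 6 tested lymphocyte genes (median 0.51), 5 of 5 mast cell genes (median 0.54) and 4 of 9 dendritic cell genes (median -0.09) were above 0, and with all 8 libraries these medians were 2.50, 1.36 and 0.27. Cd3e, Cd3d, Cd8a, Dntt, Nkg7, Ncr1 and Il7r, and Xcr1, Cd209a and Siglech, each had a count of 0 in at least 1 of the 7 deeper libraries. The macrophage genes of TO 1 other than Marco, by contrast, lay within the range of the other libraries. The count of 0 for Marco cannot be placed, since its floor of 10.3 CPM lies above the Marco level of every other library.

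Markers of heart and liver differed widely between libraries. The 6 heart genes summed to 616, 389.9, 4393 and 3426 CPM in controls 1 to 4 and to 5763, 2123, 3204 and 4630 CPM in TO 1 to 4, led by Myh6, and 6 of 6 were above 0 (median 1.22). That median was 0.77 without control 2, 2.87 without control 4 and 0.71 with control 3 added to the 6 libraries. The 6 liver genes, led by Alb, summed to 765 CPM in control 1 and 317 CPM in TO 4 against 2.53 to 75.7 CPM in the others. Of these genes 4 of 6 were above 0 (median 0.07, and -3.26 to 3.77 with 1 library left out). Clec4f, the marker of liver macrophages on that list, had a count of 0 in at least 1 of the 7 deeper libraries. It was highest in TO 4 (1.36 CPM) and control 1 (0.613 CPM), and at 0.390 CPM or less in the others. Lymphatic endothelial genes were above 0 for 4 of 5 (median 0.70, and 0.44 with all 8 libraries), with a sum of 97.2 to 149 CPM in controls and 141 to 151 CPM in TO lungs. Erythroid genes were above 0 for 4 of 7 (median 0.09, and -0.32 with all 8 libraries), and genes of lung identity for 3 of 8 (median -0.06, and -0.17 with all 8), with the lung transcription factor Nkx2-1 at 324 CPM or more in every library.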

How the data were processed

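NexteraXT libraries of the 8 lungs were sequenced in pairs of 150 bases, and the authors used STAR with GRCm38 and deposited unnormalized counts per gene, from which the column that ignores strand was taken. Symbols come from GENCODE M21. Read pairs that fit more than 1 gene were left out of the counts, which lowers genes with close copies. A gene was tested if 3 libraries had 5 reads each. Tests were run in R 4.3.3 with edgeR 4.0.16 (TMM, quasi-likelihood, Benjamini-Hochberg over all genes, threshold 0.1), with DESeq2 1.42.0 and limma 3.58.1 as alternatives, and the scripts were tried on simulated data. CPM uses TMM factors of all 8 libraries. Genes named are the 10 and, from among the others, the 3 most abundant and the most different gene of each list, those DESeq2 called within a list, the 10 most alike, markers at 0, and Csf2rb and Prtn3, added for groups that did not overlap. The 10 genes and the lists were chosen with earlier results of these data known. The labels do not say whether the fetuses come from separate litters or what their shared specimen codes stand for. Every pair of replicates differed by more than counting error. The p-values set the difference between the groups against the spread between these samples, taken as independent, which the shared codes leave unsettled.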

Additional observations from a re-analysis of the deposited data

Results flagged for a closer look

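In a group of 4 libraries, 1 library was called apart when its gap to the nearest other library took up most of the range of the group. For independent, normally distributed values chance alone gives this in about 1 of 20 groups. The groups here include sums over lists, genes picked from these data and the shallow TO 1, so that share need not hold. Of 74 groups examined, none of those of the 10 macrophage genes had a library apart, and 9 others did. TO 1 lay apart from the other TO libraries for Mmp9 (44.8 CPM) and the summed dendritic cell (227 CPM), mast cell and basophil (217 CPM) and lymphocyte genes (275 CPM). Control 3 lay apart from the other controls for Ifit3 (14.3 CPM), the summed interferon-stimulated genes (321 CPM) and the summed lysosome and lysozyme genes (3617 CPM). Control 1 lay apart for the summed liver genes (765 CPM), and TO 3 for Ifit3 (39.2 CPM).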

How the results depend on the processing

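Counts of called genes, fold changes of the macrophage genes and the medians of all lists were computed again under 21 alternatives. Of these alternatives 1, DESeq2 with all 8 libraries, was chosen after seeing the data. The number of macrophage genes above 0 was 9 or 10 of 10 under all of them, and the exception was Marco, at -0.05 with all 8 libraries and the specimen code as a block and at -0.64 without TO 2 (-0.64 to 1.43 with 1 library left out). Of 210 fold changes of single genes, 206 kept their direction and their side of the threshold. The other 4 are these 2 of Marco and 2 of Lyz2, which was called with the replicate block on 6 libraries (0.57, adjusted p of 0.0709 by edgeR) and without TO 4 (1.02, adjusted p of 0.0917), so that 1 macrophage gene was called under each of these and 0 under the others. The adjusted p over all alternatives ran from 0.0709 to 1. Genes called numbered 44 with DESeq2, 40 without the filter, 7 with DESeq2 on all 8 libraries, 219 with the replicate block on 6 libraries, 3 with that block on 8, and 0 to 144 with 1 library left out (52 without control 4, 144 without TO 4). Among the 6 libraries control 1 and TO 3 are alone in their replicate numbers, and TO 3 in its specimen code. A block on 6 libraries takes such libraries out of the comparison, so its values do not show the effect of blocking alone. The median of the macrophage genes was 0.44 with the replicate block on 6 libraries, 0.41 with it on 8, 0.46 and 0.41 with the specimen code as a block on 6 and on 8, and 0.52 to 0.84 with 1 library left out, lowest without TO 3. The labels give control and TO libraries the same replicate numbers but no pairing. Deviations from the group means over 21859 genes correlated at 0.06, 0.13, 0.16 and 0.07 between libraries of the same number, which is not over 0.1 for each, so the numbers were not taken as pairs. Control and TO libraries that share a specimen code correlated at 0.03 to 0.16 in 6 of 6 pairs, control 1 and TO 4 (0.09) among them, and those of other codes at -0.17 to 0.01 in 10 pairs. The cause of these shifts was not tested. Among the other lists, 324 of 399 medians moved by less than the spread between libraries. Depth limits Marco and every value of TO 1.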
